A study of Mus musculus with 7 samples.

Results

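The multidomain BCL2 family members are the proteins that decide whether a mitochondrion releases the factors that start cell death. The 7 genes considered were the guardians Bcl2, Bcl2l1 (BCL-XL), Mcl1 and Bcl2l2 (BCL-w), and the pore formers Bax, Bak1 and Bok. Every probe set annotated to exactly 1 of these symbols was taken, which gave 22 of the 45037 probe sets on the array and covered 6 of the 7 genes. Bax had no probe set in the annotation used and was not analysed here. The 22 probe sets were 5 of Bcl2, 6 of Mcl1, 4 of Bcl2l1, 4 of Bcl2l2, 2 of Bak1 and 1 of Bok.

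The values came from 7 Affymetrix arrays of mouse T-cell acute lymphoblastic leukemia on the strain C57Bl/6, with 1 cell suspension per array. The genotype TEL-JAK2, a fusion that keeps the kinase JAK2 active, was represented by 4 arrays of leukemic cells taken from the thymus. The genotype ICN1, the activated intracellular form of NOTCH1, was represented by 3 arrays of leukemic cells taken from the bone marrow. All mice were terminally ill, tissues were crushed, filtered and lysed without a named sorting step, and the promoter or vector behind either oncogene, the age of the mice and any pooling of animals are not named in these sources. Genotype and tissue split the arrays in the same way and cannot be told apart. The labels do not say outright that the arrays of a group come from separate animals, so p-values reflect only how these arrays vary. The title of the series poses the question of how the transcriptomes of the leukemias differ.

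In healthy and malignant lymphocytes the guardians hold BAX and BAK in check by binding them in a groove on their surface, and BH3-only proteins such as BIM compete for the same groove. When BAX or BAK is freed it opens the outer mitochondrial membrane, cytochrome c escapes and caspases are switched on. In mouse thymocytes BCL-XL is the guardian of the CD4 CD8 double-positive stage and BCL2 that of mature cells, while MCL1, a protein with a short life, is needed at several stages.

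Some arrays stood apart from the rest of their group. Xist, the transcript that silences an X chromosome, read 13.12 to 13.36 log2 units in TEL-JAK2 replicates 1 to 3 and 5.19 in TEL-JAK2 replicate 4, whereas the Y-linked gene Eif2s3y read 3.18 to 3.29 in replicates 1 to 3 and 10.23 in replicate 4. ICN1 replicates 1 and 2 held both, with Xist at 11.51 and 11.78 and Eif2s3y at 8.93 and 9.41, and ICN1 replicate 3 held Xist alone (12.09, with Eif2s3y at 3.25). Cell type markers were counted by the brightest probe set of each gene, where 11.3% of all genes were called higher and 11.7% lower. Of 7 measured T-lineage markers 4 were higher and 1 lower in TEL-JAK2, and the mean of the list was 11.89 to 12.06 in TEL-JAK2 and 11.45 to 11.68 in ICN1. Of 5 double-positive thymocyte markers 3 were higher and 1 lower (mean 11.23 to 11.85 in TEL-JAK2 and 10.22 to 11.54 in ICN1). The genes called lower were Cd5 of the first list and Ptcra of the second. The brightest genes of these lists were Cd3d and Thy1, and Cd8a and Cd8b1, which averaged 13.71, 13.36, 13.40 and 13.39 in TEL-JAK2 and 13.20, 12.83, 11.86 and 11.62 in ICN1. Among them Thy1 was not called (adjusted p = 0.121 by limma). Of 8 erythroid markers 7 were lower (5.71 to 6.28 and 11.92 to 12.19), of 5 megakaryocyte markers 4 (5.63 to 5.84 and 6.89 to 8.58), of 9 granulocyte markers 5 (5.21 to 5.73 and 6.38 to 8.30) and of 8 macrophage markers 5 (5.99 to 8.30 and 8.67 to 10.29). Of the 2 brightest erythroid markers, the transcription factor gene Gata1 averaged 9.68 in TEL-JAK2 and 10.49 in ICN1 and was not called, and Alas2, which encodes an enzyme of heme synthesis, averaged 7.39 in TEL-JAK2 and 13.49 in ICN1. Of the 2 brightest granulocyte markers, S100a9 averaged 6.43 in TEL-JAK2 and 9.79 in ICN1, and S100a8 averaged 6.42 in TEL-JAK2 and 9.59 in ICN1. B-lineage markers had 1 of 7 higher (Vpreb1) and dendritic markers 0 of 5 called. Thymic epithelial markers had 1 of 7 higher (Epcam), and stromal and endothelial markers 1 of 8 lower (Pdgfra). Such counts are too small to be set apart from the shares over all genes. The stromal mean was 5.31 to 5.33 in TEL-JAK2 replicates 1 to 3 and 7.35 in replicate 4, against 6.00 to 7.40 in ICN1. In such suspensions fewer cells of a type and less RNA per cell cannot be told apart. The part of these other cells in the results below was not tested.

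The region just before the start of Bcl2 and of Mcl1, the genes for which every probe set differed between the leukemias, is shown because the oncogenes act through transcription factors that bind DNA, STAT5 downstream of JAK2 and RBPJ downstream of NOTCH1. The sequences are the 250 bases before the RefSeq start in build GRCm38.p6, on the gene's own strand. Capitals mark the letters TGACGT, the core bound by CREB, and no match to the other motifs occurred in these windows.
Bcl2, chr1:106714291-106714540, minus strand: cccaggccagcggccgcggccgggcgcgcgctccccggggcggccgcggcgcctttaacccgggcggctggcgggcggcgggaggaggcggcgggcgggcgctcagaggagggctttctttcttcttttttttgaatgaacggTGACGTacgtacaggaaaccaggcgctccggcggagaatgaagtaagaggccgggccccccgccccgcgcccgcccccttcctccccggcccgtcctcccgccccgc
Mcl1, chr3:95658471-95658720, plus strand: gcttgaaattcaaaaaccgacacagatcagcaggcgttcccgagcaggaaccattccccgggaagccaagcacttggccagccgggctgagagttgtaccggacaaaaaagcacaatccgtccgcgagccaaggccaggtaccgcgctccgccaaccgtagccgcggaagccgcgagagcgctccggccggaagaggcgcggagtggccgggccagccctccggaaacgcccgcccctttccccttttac

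Both windows were rich in G and C, at 74.8% for Bcl2 and 64.4% for Mcl1, where the median of all 32851 RefSeq promoter windows was 52.4%. The STAT motif TTCNNNGAA, searched on both strands, was found in 0 of the 9 windows of the 7 genes and in 7.02% of all windows. The RBPJ motif TGGGAA was found in 1 window each of Bcl2l2 and Bax and in 21.6% of all windows. The CREB core TGACGT was found 107 bases before the start of Bcl2, in no other window of the 7 genes, and in 6.47% of all windows. The motifs do not overlap each other in letters at any of these positions. They were chosen with the sequences and the results known, and a match is a description of letters, not of binding.

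Bcl2 was the member that differed most. All 5 of its probe sets were higher in TEL-JAK2 than in ICN1, by 27.0-fold to 50.1-fold, and in none of them did the groups overlap. Its brightest probe set, 1457687_at, read 12.62, 12.75, 12.91 and 13.22 log2 units in TEL-JAK2 replicates 1 to 4, against 8.20, 7.40 and 7.21 in ICN1 replicates 1 to 3. The lowest TEL-JAK2 array thus lay above the highest ICN1 array by more than the range of either group. The difference was 5.27 ± 0.26 log2 units (SE), a 38.6-fold higher level with a 95% interval of 25.5-fold to 58.4-fold (adjusted p = 2.51e-05, limma fit to the table of 45037 probe sets). By size this difference had rank 92 among all probe sets of the table.

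The other 4 Bcl2 probe sets read between 10.69 and 12.57 in TEL-JAK2 and between 5.11 and 7.06 in ICN1. The difference was largest for 1437122_at (5.65 ± 0.23, adjusted p = 1.18e-05 by limma), which read 10.85, 10.92, 11.20 and 11.44 in TEL-JAK2, against 5.94, 5.31 and 5.11 in ICN1. It was smallest for 1422938_at (4.75 ± 0.22, adjusted p = 1.93e-05 by limma), with 10.79, 10.69, 11.13 and 11.56 in TEL-JAK2, against 6.49, 6.21 and 6.18 in ICN1. Several ICN1 values of these probe sets lie close to the array medians of 5.44 to 5.5, where RMA values understate folds, and the folds are best read as those of this scale. The 5 probe sets were called in every alternative fit (highest adjusted p = 0.00233), and their differences ranged from 4.13 with the arrays centred on CD3 genes to 6.26 without ICN1 replicates 1 and 2. The erythroid list moved the other way (mean 5.71 to 6.28 in TEL-JAK2 and 11.92 to 12.19 in ICN1), and its part in the low ICN1 values was not tested.

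**Figure D1:**
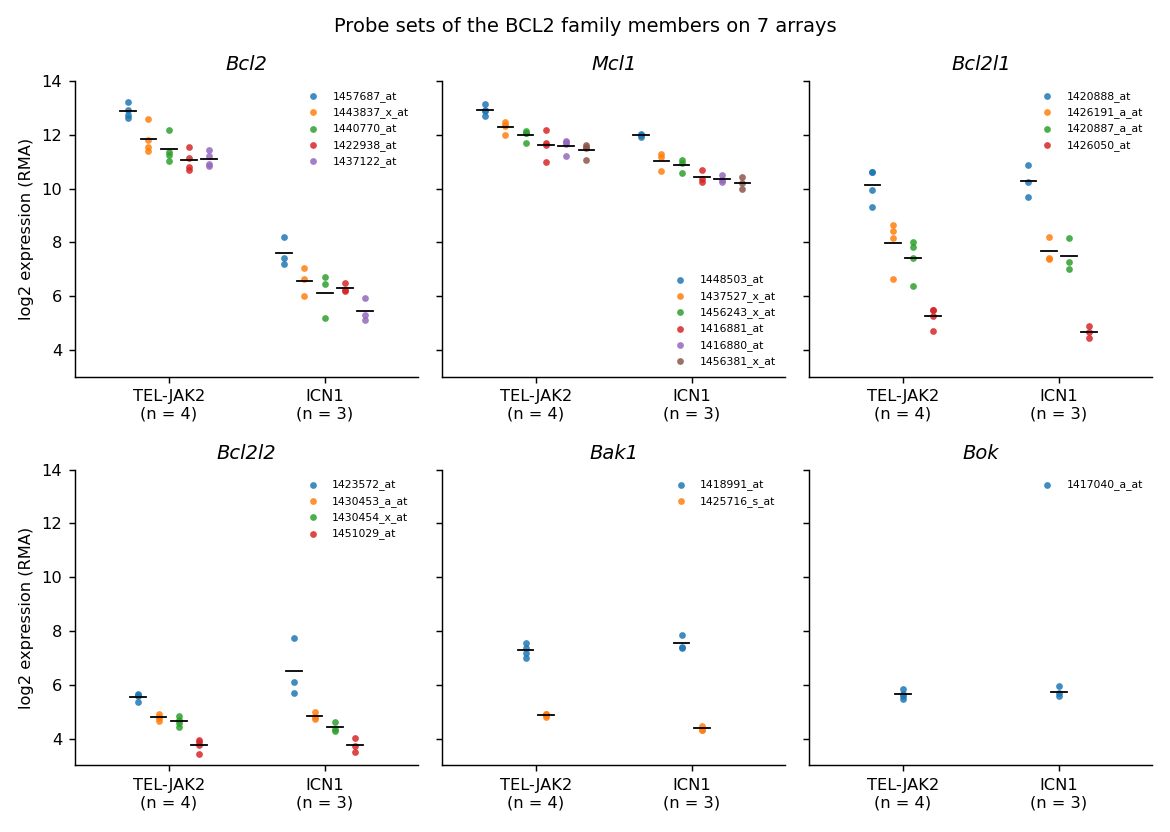
Log2 expression (RMA) of each member probe set on every array, by gene, with the 4 TEL-JAK2 arrays left of the 3 ICN1 arrays. Points are arrays, colours are probe sets and the short black lines are group means. The Bcl2 points of TEL-JAK2 lie between 10.69 and 13.22 and those of ICN1 between 5.11 and 8.20.

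Mcl1, the short-lived guardian, was also higher in TEL-JAK2, by a smaller step. All 6 probe sets were called, at 1.91-fold to 2.38-fold, and again no groups overlapped. The brightest, 1448503_at, read 12.92, 12.87, 13.16 and 12.70 in TEL-JAK2 replicates 1 to 4, against 11.92, 11.98 and 12.04 in ICN1. The ICN1 arrays were within 0.11 log2 units of each other and the TEL-JAK2 arrays within 0.46. The difference was 0.93 ± 0.12 (adjusted p = 0.00215 by limma), and its 95% interval ran from 1.57-fold to 2.32-fold.

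The probe sets of Mcl1 that gave the largest and the least certain difference showed the same order of groups. For 1437527_x_at, a type of probe set that can also bind other transcripts, the values were 12.35, 12.34, 12.49 and 11.98 in TEL-JAK2, against 11.16, 11.30 and 10.65 in ICN1 (1.25 ± 0.19, adjusted p = 0.00396 by limma). For 1416881_at they were 11.71, 11.62, 12.18 and 10.98 in TEL-JAK2, against 10.34, 10.25 and 10.68 in ICN1 (1.20 ± 0.27, adjusted p = 0.0187 by limma). The call of 1416881_at was lost without ICN1 replicate 1 (adjusted p = 0.0590), without ICN1 replicate 2 (0.0619), without TEL-JAK2 replicate 1 (0.0546) and without ICN1 replicates 1 and 2 together (0.227), while the remaining 5 Mcl1 probe sets kept theirs in all 7 fits without 1 array. Mcl1 depended on the scaling: with each array centred on its CD3 genes Cd3d, Cd3e, Cd3g and Cd247, which read higher in TEL-JAK2 by 0.41 to 0.88, the median of all probe sets moved to -0.59 from 0.04, the difference of 1448503_at was 0.31 (adjusted p = 0.0970) and that of 1416881_at 0.58 (adjusted p = 0.0533), while the other 4 were still called higher, by 0.49 to 0.63.

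Over the family, 12 of the 22 probe sets were called, all of them higher in TEL-JAK2, where 19.6% of all probe sets were called, 9.26% higher and 10.3% lower. The 12 are not independent, since 11 of them measure the transcripts of Bcl2 and Mcl1. The groups did not overlap in 13 of the 22, where they did not overlap in 30.7% of all probe sets. The median difference of the 22 was 0.75, and 0.04 over all probe sets. Counted once per gene by the brightest probe set, 2 of 6 genes were higher and 4 were not called, where 11.3% of 18193 genes were higher, and the median difference of the 6 was -0.12. With CD3 centring 9 member probe sets were higher and 6 lower, where 3.46% of all probe sets were higher and 66.6% lower. Without ICN1 replicates 1 and 2, a fit in which the 1 remaining ICN1 array is assumed to vary like the TEL-JAK2 arrays, 11 were higher and 0 lower, where 5.08% of all probe sets were higher and 7.83% lower. Without TEL-JAK2 replicate 4, 13 were higher and 9.26% of all probe sets were.

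**Figure D2:**
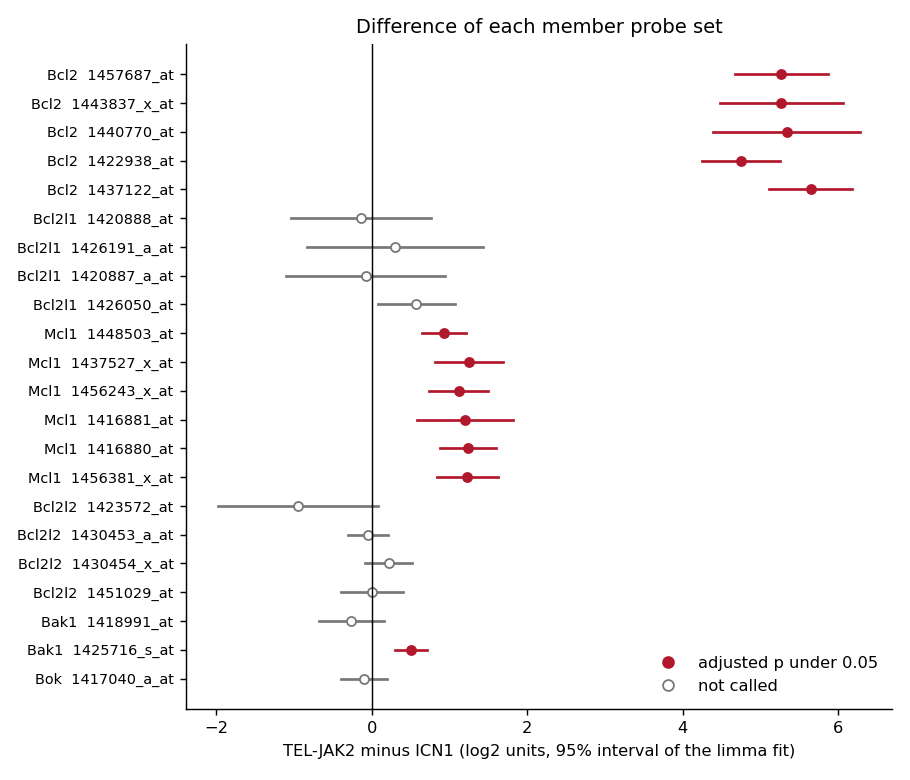
Difference of each of the 22 member probe sets, TEL-JAK2 minus ICN1 in log2 units, with the 95% interval of the limma fit over all probe sets. Filled red points have an adjusted p under 0.05 and open grey points do not. The 5 Bcl2 points lie between 4.75 and 5.65 and the 6 Mcl1 points between 0.93 and 1.25.

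Bcl2l1, which encodes BCL-XL, was not called from any of its 4 probe sets. The brightest, 1420888_at, read 10.60, 9.94, 10.62 and 9.32 in TEL-JAK2, against 10.23, 10.86 and 9.70 in ICN1. The groups overlapped throughout, and the spread within each group exceeded the gap between the means. The difference was -0.14 ± 0.39 (adjusted p = 0.842 by limma), with a 95% interval from -1.04 to 0.76 log2 units. BCL-XL is also a survival factor of red cell precursors in mice, and the erythroid markers given above were far higher in ICN1. The part of such cells in the Bcl2l1 values was not tested.

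The other Bcl2l1 probe sets read 6.62 to 8.65 in TEL-JAK2 and 7.40 to 8.19 in ICN1 for 1426191_a_at (0.30 ± 0.49), 6.37 to 8.02 and 7.02 to 8.17 for 1420887_a_at (-0.08 ± 0.44), and 4.71 to 5.5 and 4.46 to 4.90 for 1426050_at (0.57 ± 0.21, adjusted p = 0.108 by limma). TEL-JAK2 replicate 4 was the lowest TEL-JAK2 array in all 4. Without it 1426050_at, a dim probe set, was called higher (0.75, adjusted p = 0.0161 by limma) and the difference of 1420888_at turned to 0.12. With CD3 centring 1420888_at was called lower (-0.77, adjusted p = 0.0403).

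Bcl2l2, which encodes BCL-w, read near or below the array medians in most arrays and was not called from any of 4 probe sets. The brightest, 1423572_at, read 5.64, 5.67, 5.35 and 5.57 in TEL-JAK2, against 7.73, 5.68 and 6.10 in ICN1. The groups did not overlap, by less than 0.01 log2 units between TEL-JAK2 replicate 2 and ICN1 replicate 2, and ICN1 replicate 1 alone stood well above the rest. The difference was -0.95 ± 0.44 (adjusted p = 0.188 by limma) and was -0.33 without ICN1 replicate 1. The remaining 3 probe sets read between 3.42 and 4.91 in TEL-JAK2 and between 3.50 and 5.0 in ICN1, with differences between -0.05 and 0.21.

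Of the pore formers Bak1 and Bok were measured, and neither was called from its brightest probe set. For Bak1, which sits in the mitochondrial membrane and opens it when freed, 1418991_at read 7.37, 7.57, 6.99 and 7.18 in TEL-JAK2, against 7.36, 7.41 and 7.86 in ICN1. These groups overlapped, and the difference of -0.26 ± 0.18 was not called (adjusted p = 0.362 by limma), with an interval from -0.68 to 0.15. The second Bak1 probe set, 1425716_s_at, read 4.91, 4.92, 4.89 and 4.81 in TEL-JAK2, against 4.47, 4.34 and 4.33 in ICN1, and was called higher (0.50 ± 0.09, adjusted p = 0.00673 by limma).

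The Bak1 probe sets therefore gave opposite signs. The called one lay below the array medians on all 7 arrays, its type can bind related transcripts, and with CD3 centring its difference turned to -0.12 (adjusted p = 0.502). Bok, a BAX relative whose 1 probe set read 5.67, 5.60, 5.48 and 5.83 in TEL-JAK2, against 5.95, 5.69 and 5.60 in ICN1, was not called (-0.10 ± 0.13, adjusted p = 0.641 by limma). Its groups overlapped and every value lay close to the array medians. With CD3 centring the brightest probe sets of Bcl2l2, Bak1 and Bok were called lower (-1.57, -0.89 and -0.72, adjusted p = 0.0109, 0.0152 and 0.0125), where the median of all probe sets was -0.59.

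Differences between members within 1 array do not move when all log2 values of that array shift equally, as in CD3 centring. Their zero has no meaning, since they set one probe set against another, but a shift between groups shows unequal change. Bcl2 minus Mcl1, from the brightest probe sets, was -0.30, -0.12, -0.25 and 0.53 log2 units in TEL-JAK2, against -3.72, -4.57 and -4.83 in ICN1. Bcl2 was thus raised over Mcl1 by 4.34 log2 units, with no overlap of the groups and SDs of 0.38 in TEL-JAK2 and 0.58 in ICN1. Bcl2 minus Bcl2l1 was 2.02, 2.81, 2.29 and 3.91 in TEL-JAK2, against -2.02, -3.46 and -2.49 in ICN1, a shift of 5.41.

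Mcl1 minus Bcl2l1 was 2.32, 2.93, 2.54 and 3.38 in TEL-JAK2, against 1.70, 1.12 and 2.33 in ICN1. The groups overlapped by less than 0.01 log2 units, since TEL-JAK2 replicate 1 lay just below ICN1 replicate 3, and the shift was 1.08 (SD 0.46 in TEL-JAK2 and 0.61 in ICN1). These 3 pairs are a description and were not tested. Pairs with Bax were not analysed here.

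**Figure D3:**
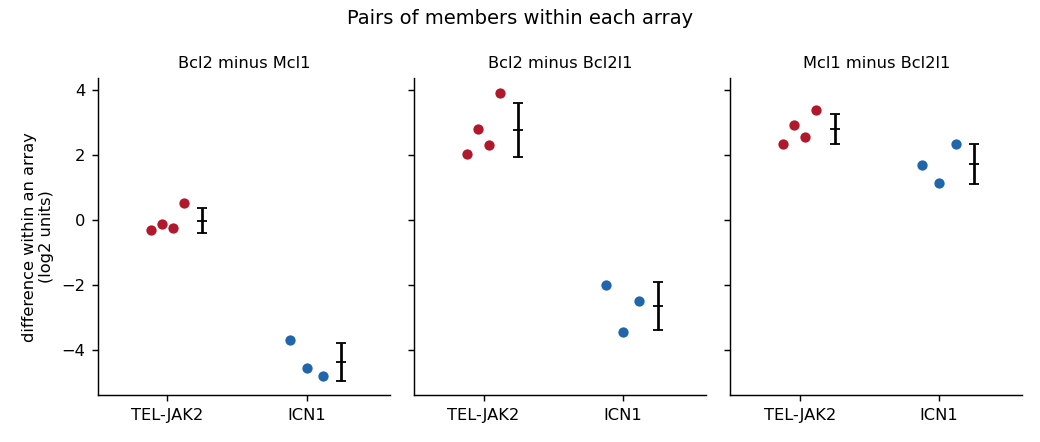
Log2 difference between the brightest probe sets of 2 members within each array, for 3 pairs, with the 4 TEL-JAK2 arrays left of the 3 ICN1 arrays. Points are arrays and bars are means with SD. The Bcl2 minus Mcl1 points lie between -0.30 and 0.53 in TEL-JAK2 and between -4.83 and -3.72 in ICN1.

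Among the TEL-JAK2 arrays, replicate 4 had the highest value of its group in 5 of 5 Bcl2 probe sets and the lowest in 6 of 6 Mcl1 and 4 of 4 Bcl2l1 probe sets. For Bcl2 this put it at 13.22 in 1457687_at, with the other arrays at 12.62 to 12.91. For Mcl1 it put it at 11.22 in 1416880_at, with the others at 11.65 to 11.78. For Bcl2l1 it put it at 6.62 in 1426191_a_at, with the others at 8.16 to 8.65. None of these values passed Dixon's test for an outlying array at its 95% critical value (highest ratio of gap to range 0.806, Mcl1 1456243_x_at).

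The same array stood apart in Xist, Eif2s3y and the stromal markers, as given above, and its double-positive thymocyte mean of 11.23 was the lowest of the 4, with the others at 11.64 to 11.85. The part of these in the spread was not tested. Probe sets of 1 gene share transcripts, so these counts describe 1 array in 3 genes. How often replicate 4 was the highest or lowest TEL-JAK2 array over all probe sets was not computed, so the counts are no trait of these genes. Among ICN1 arrays, replicate 1 had the highest value in 5 of 5 Bcl2 and 4 of 4 Bcl2l2 probe sets, and replicate 2 in 4 of 4 Bcl2l1 probe sets. For these arrays too the share over all probe sets was not computed. In ICN1 replicate 1 the double-positive thymocyte mean was 10.22, below the 11.54 and 11.41 of ICN1 replicates 2 and 3.

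**Figure D4:**
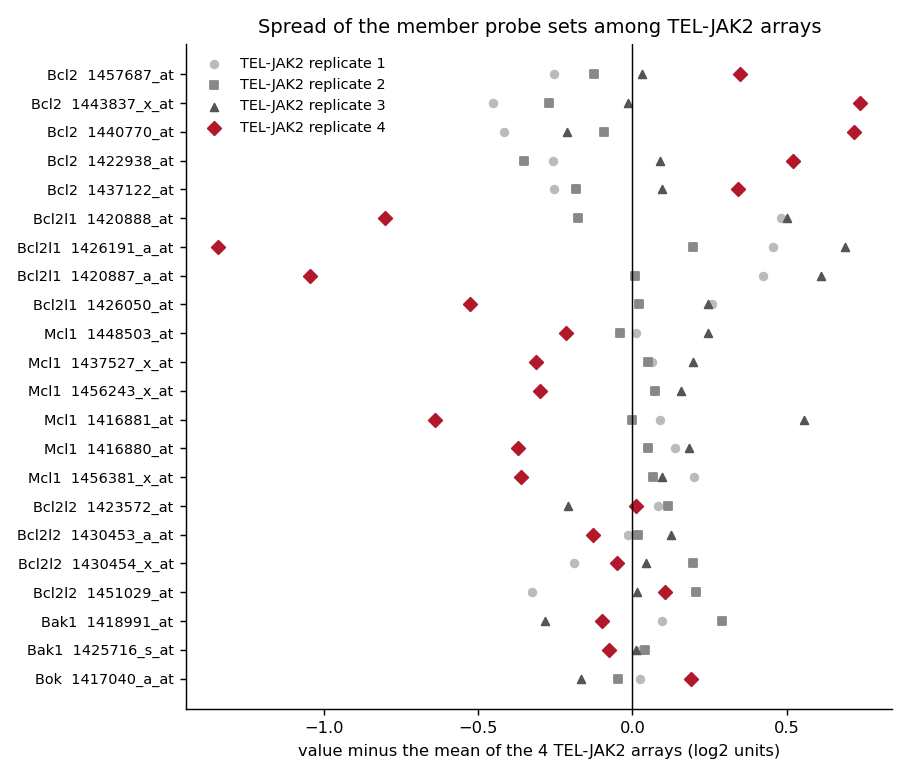
Each member probe set on the 4 TEL-JAK2 arrays, as its value minus the mean of these arrays in log2 units. Red diamonds mark replicate 4, grey symbols the other arrays. The diamonds lie right of 0 for the 5 Bcl2 probe sets and left of 0 for the 6 Mcl1 and 4 Bcl2l1 probe sets.

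Genes with the most similar pattern were found by the root mean square difference of log2 values over the 7 arrays, after each gene's own mean was removed, among 18193 genes. The 4 nearest to Bcl2 were Gm2629, Sfrp2, Sema4a and Socs2, at 0.33, 0.39, 0.41 and 0.42 log2 units. They were higher in TEL-JAK2 by 5.42, 5.56, 4.96 and 5.61 log2 units. Sfrp2 is a secreted modulator of WNT signalling, Sema4a a semaphorin of immune cells and Socs2 a feedback inhibitor of cytokine receptors. The 4 nearest to Mcl1 were Arhgap30, Vhl, Mknk1 and Galnt2, at 0.05, 0.05, 0.06 and 0.07 log2 units, and were higher by 1.03, 0.97, 0.93 and 0.85. All 8 carry a group difference close to that of the member, which the measure rewards.

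Genes that act on or after the multidomain members were counted by the brightest probe set of each gene, where 23.0% of all genes were called, 11.3% higher and 11.7% lower. Of 8 BH3-only genes, whose products bind and neutralise the guardians, 2 were higher, 1 lower and 5 not called, with a median difference of 0.47 (0.04 over all genes). Bcl2l11, which encodes BIM, averaged 12.07 ± 0.31 (SD, n = 4) in TEL-JAK2 and 10.29 ± 1.04 (SD, n = 3) in ICN1. Bmf averaged 10.43 ± 0.13 in TEL-JAK2 and 8.46 ± 0.99 in ICN1. Bid, which carries the signal of death receptors to mitochondria, was lower at 8.48 ± 0.47 in TEL-JAK2 and 9.57 ± 0.26 in ICN1.

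The differences of these BH3-only genes were 1.78 ± 0.45 for Bcl2l11 (adjusted p = 0.0297), 1.97 ± 0.40 for Bmf (0.0136) and -1.08 ± 0.26 for Bid (0.0248), all by limma. Bbc3, which encodes PUMA, and Pmaip1, which encodes NOXA, a partner of MCL1, differed by 0.42 ± 0.27 and -0.58 ± 1.0 and were not called, nor were Bad (0.53), Bik (0.68) and Hrk (0.30). Bad lay just past the threshold (adjusted p = 0.0507), and its dimmer probe set was called higher (0.78, adjusted p = 0.0263). Its brightest probe set was called with 1 probe set per gene, quantile normalization and cyclic loess (adjusted p = 0.0457, 0.0357 and 0.0313 by limma). It was not called with median centring (adjusted p = 0.0637 by limma), with CD3 centring (-0.10) or in 6 of 7 leave-one-out fits. Bad and Bik were also called higher when dim probe sets were left out, a fit that called 4085 genes in either direction (4186 with them). With array weights Bad, Bik and Hrk were called higher. The share of all genes called higher was not computed for these fits, so the added calls are no result about the list. Bcl2l11 missed the threshold in 6 of 7 leave-one-out fits, and held it only when ICN1 replicate 2 was dropped (adjusted p from 0.0551 to 0.0849 in the 6), although its further 4 probe sets were called higher as well (1.6 to 2.00). Bid missed it when any one of TEL-JAK2 replicates 1 and 2 and ICN1 replicates 1 and 3 was dropped (0.0515 to 0.0741). Of the 2 dimmer probe sets of Bmf, 1 was called higher and 1 was not called (0.01, adjusted p = 0.970 by limma). Of the 2 dimmer ones of Bid, 1 was called lower and 1 was not called (-0.73, adjusted p = 0.0624 by limma).

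Of 10 measured genes of the apoptosome, caspases and their inhibitors, 3 were higher and 2 lower, with a median of 0.43. Casp6, an executioner caspase, was 3.64-fold higher (1.86 ± 0.20, adjusted p = 0.00105 by limma), and Birc2, which encodes the inhibitor cIAP1, 2.01-fold higher (1.01 ± 0.08, adjusted p = 0.000349). Xiap, a direct caspase inhibitor, was called higher (0.59 ± 0.15, adjusted p = 0.0322), but its 6 dimmer probe sets were not, it missed the threshold in 5 of 7 leave-one-out fits, those that dropped TEL-JAK2 replicates 1, 2 and 3 and ICN1 replicates 2 and 3 (adjusted p from 0.0662 to 0.0887), and with CD3 centring it read -0.03. Birc5, which encodes survivin, a protein of dividing cells, was 4.49-fold lower (-2.17 ± 0.27, adjusted p = 0.00181), and Htra2, a mitochondrial protease, 2.19-fold lower (-1.13 ± 0.15, adjusted p = 0.00255). Apaf1, the scaffold of the apoptosome, and Casp9, its caspase, differed by 0.44 ± 0.18 and 0.16 ± 0.10 and were not called, nor were Cycs (-0.55), Diablo (0.43) and Birc3 (0.67). A dimmer probe set was called lower for Cycs (-0.74, adjusted p = 0.0429) and higher for Birc3 (0.55, adjusted p = 0.0242). With CD3 centring 1 gene of the list was higher and 4 were lower, where 4.46% of all genes were higher and 63.9% lower, and Birc2 read 0.38 (adjusted p = 0.0710).

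Of 9 mitochondrial partners of BAX and BAK, 0 were higher, 4 lower and 5 not called, with a median of -0.36. Immt, which shapes the inner membrane folds, differed by -0.96 ± 0.13 (adjusted p = 0.00255), the channel gene Vdac3 by -0.49 ± 0.11 (0.0199), the fission gene Dnm1l by -0.51 ± 0.13 (0.0295) and Mtch2, a receptor for BID, by -0.58 ± 0.17 (0.0463), all by limma. Vdac3 missed the threshold when TEL-JAK2 replicate 2 or either of ICN1 replicates 2 and 3 was dropped (adjusted p from 0.0509 to 0.0590). Dnm1l missed it when any one of TEL-JAK2 replicates 1, 2 and 3 or ICN1 replicate 3 was dropped (0.0558 to 0.0754), and Mtch2 when any array except ICN1 replicate 2 was dropped (0.0572 to 0.124). Bcap31 (-0.01 ± 0.09) and Opa1 (-0.15 ± 0.15) were not called, nor were Vdac1 (0.19), Vdac2 (-0.36), which holds BAK at the membrane, and Fis1 (0.12). A dimmer probe set of Opa1 was called lower (-0.97 ± 0.16, adjusted p = 0.00629), the other dimmer one was not, and none of the 6 dimmer probe sets of Mtch2 was called. With CD3 centring all 9 were lower, where 63.9% of all genes were lower.

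Of 7 genes that control the turnover of MCL1 protein, 0 were higher and 2 lower, with a median of -0.18. Huwe1, a ubiquitin ligase for MCL1, differed by -0.44 ± 0.11 (adjusted p = 0.0343) and Btrc, a subunit of another ligase, by -0.85 ± 0.20 (adjusted p = 0.0221, both by limma). Huwe1 missed the threshold when any array except TEL-JAK2 replicate 4 was dropped (0.0633 to 0.0951), and Btrc when replicate 2 of either group was dropped (0.0589 and 0.0661). None of the 4 dimmer probe sets of Huwe1 and 1 of the 4 of Btrc was called lower. Gsk3b (0.09 ± 0.16) and Usp13 (0.14 ± 0.12) were not called, nor were the ligase subunit gene Fbxw7 (0.55), the deubiquitinase gene Usp9x (-0.36) and Gsk3a (-0.18). Without ICN1 replicates 1 and 2 neither Huwe1 (-0.54, adjusted p = 0.123) nor Btrc (-0.70, adjusted p = 0.181) was called. Of 5 measured relatives of BCL2 outside the 7 genes, 1 was lower, Bcl2l13, a mitophagy receptor (-1.0 ± 0.10, adjusted p = 0.000629 by limma), and 4 were not called, namely Bcl2l14 (0.15 ± 0.27), Bcl2l10 (0.06 ± 0.09), Bcl2l12 (-0.28) and Bcl2l15 (-0.29). Without ICN1 replicates 1 and 2, the BH3-only list had 2 genes higher and 0 lower, the apoptosome list 2 and 2, the mitochondrial partners 0 and 2, the turnover list 0 and 0 and the other relatives 0 and 1, where 5.78% of all genes were higher and 8.62% lower.

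**Figure D5:**
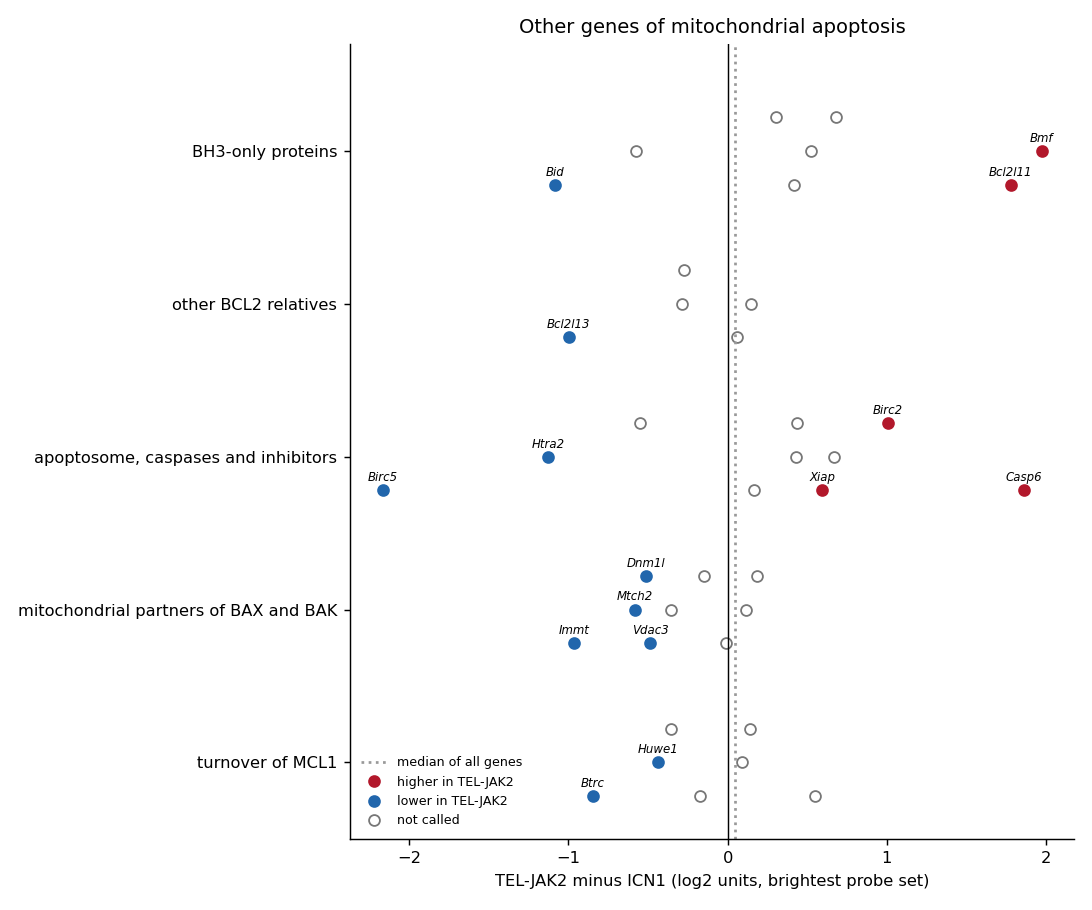
Difference of each pathway gene, TEL-JAK2 minus ICN1 in log2 units, from its brightest probe set, by list. Red points were called higher, blue points lower, open points were not called, and the dotted line is the median of all genes at 0.04. Bmf, Casp6 and Bcl2l11 lie furthest right and Birc5 furthest left.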

How the data were processed

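The deposited values are on a log2 scale, 1 per probe set and array. The submitters' processing notes name RMA, which corrects background, normalizes arrays to each other and summarises the probes of a set, with no version. The values ran from 2.57 to 14.86. Of 45037 probe sets, 34945 had 1 symbol in the platform annotation, 932 several and 9160 none. No further normalization or filter was applied, and 0 columns were left unused. Labels name no batch and no detection call was used; the number of arrays limits the precision.

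The functions lmFit and eBayes of limma (3.58.1, under R 4.3.3) fitted all probe sets, with differences taken as TEL-JAK2 minus ICN1. Calls needed a p under 0.05 after Benjamini-Hochberg adjustment of two-sided tests across the table. A gene of a list was read from its brightest probe set (highest mean over the 7 arrays). Errors of differences are SEs of the fit. Replicates were numbered in accession order. The members, lists, alternatives and naming rule were chosen with earlier results of these data known. The rule named every member probe set, up to 4 called genes of a list with the smallest adjusted p and up to 2 uncalled ones with the largest, all genes of a count of 5 or fewer, the 4 genes nearest to Bcl2 and to Mcl1, and the 2 brightest markers of a cell type list where it bears on a result. Of 45 pathway genes 39 had a probe set. On simulated arrays of 45037 probe sets the fit recovered 52 of 100 changed by 1 log2 unit and 84 of 100 changed by 2, with 11 unchanged ones called, and called 0 when none was changed. In the data far more probe sets were called (8832). The adjustment depends on that share, so the simulated rates do not give the recovery of the real fit. Promoters of all 7 genes were matched by symbol in a RefSeq table of GRCm38.p6. Figures used matplotlib 3.10.9.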

Additional observations from a re-analysis of the deposited data

How the results depend on the processing

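No paired analysis was possible because the labels give no replicate numbers that groups share. Of 375 recomputed member differences, 333 kept their direction and side of the threshold, 24 changed sign, 12 lost a call and 6 gained one. Several fits changed only the probe sets tested or the test itself. In those the difference of a probe set was the same number, so its direction could not change. Member calls at an adjusted p under 0.01 are not in this tally, which is therefore no measure of stability. Of 332 recomputed counts, 269 stayed within 1.5 times the count reported and 63 did not. Without 1 array the within-array shift ran from 4.11 to 4.67 for Bcl2 minus Mcl1. It ran from 5.02 to 5.73 for Bcl2 minus Bcl2l1 and from 0.78 to 1.39 for Mcl1 minus Bcl2l1. Dropping 1 array cannot move such a shift by more than the spread between arrays, so that spread offers no test of stability. Leaving out 1 array gave 6175 to 8563 called probe sets (8832 with all arrays), 11 to 13 of the members (12), 3004 to 4076 genes (4186), 2 to 2 member genes (2) and 9 to 15 pathway genes (15). It turned 1420888_at of Bcl2l1 (-0.42 to 0.16), 1420887_a_at of Bcl2l1 (-0.31 to 0.27), 1430453_a_at of Bcl2l2 (-0.12 to 0.029) and 1451029_at of Bcl2l2 (-0.12 to 0.13). Without ICN1 replicates 1 and 2 there were 5813 probe sets, 2621 genes and 9 pathway genes, and Bok read 0.047, 1420888_at 0.42 and 1420887_a_at 0.39.

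CD3 centring, which lowers every TEL-JAK2 minus ICN1 value by the shift of its reference genes, gave 31563 probe sets (4.94% of them higher, 47.2% without it), 12444 genes, 5 member genes and 27 pathway genes. Mcl1 1448503_at read 0.31, and 1420888_at of Bcl2l1, 1423572_at of Bcl2l2, 1418991_at of Bak1 and Bok were called lower at -0.77, -1.57, -0.89 and -0.72. The sign turned for 1425716_s_at of Bak1 (-0.12), 1426050_at and 1426191_a_at of Bcl2l1 (-0.052 and -0.32), and 1430454_x_at and 1451029_at of Bcl2l2 (-0.41 and -0.62).

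A test against a 1.5-fold difference left 2196 probe sets, 6 of the members, 1121 genes, 1 member gene and 4 pathway genes, and Mcl1 1448503_at, at 0.93, was not called (adjusted p = 0.155). An adjusted p under 0.01 left 4152 probe sets, 2057 genes and 6 pathway genes. Without probe sets of the types that can bind other transcripts, 7 member probe sets and 7612 of the whole table were called (12 and 8832 with them). Every member call that was lost belonged to a removed probe set. The share called among the probe sets left was not computed, so the falls in the members and in the whole table cannot be compared. Averaging the probe sets of each gene gave 0.16 for Bcl2l1 and 0.12 for Bak1. For 1451029_at of Bcl2l2, quantile normalization gave -0.024, cyclic loess -0.033 and array weights -0.076, and array weights gave 0.0034 for 1420887_a_at of Bcl2l1. Where no cause is stated, it was not tested. Probe sets near the array medians, among them those of Bok and Bcl2l2 and the called one of Bak1, lie in the range where signal over background limits what can be seen.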
